A study of Mus musculus with 10 samples.

Results

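The genes described here encode the nuclear subunits of 4 complexes of the mitochondrial respiratory chain and ATP synthase. They were taken by symbol alone, as every probe set annotated with a single gene whose symbol starts with Uqcr or Atp5, or is Nduf with a, b, c, s or v and a number, or is Cox4 to Cox8 with i, a, b or c. The rule found 155 probe sets of 77 genes, out of 34958 single-gene probe sets of 18194 genes. Of these, 35 genes belonged to complex I, 8 to complex III, 17 to complex IV and 17 to complex V, counted by symbol. The brightest probe set over the 10 arrays stood for a gene. A gene was taken as measured where its signal was above a floor of 111 units, the median of all signals, at 1 age at least. By this count 70 of the 77 genes were measured in all 5 tissues, and Cox7b2 and Ndufb4 in none. The other 5 (Cox4i2, Cox6b2, Cox7a1, Cox8b and Ndufa4l2) were measured in some tissues.

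Oxidative phosphorylation passes electrons from NADH through complex I, and from succinate through complex II, to ubiquinone, then through complex III and cytochrome c to complex IV, where oxygen is reduced to water. Complexes I, III and IV pump protons across the inner mitochondrial membrane, and complex V (ATP synthase) uses the return flow to make ATP. Most subunits are encoded in the nucleus and imported, a small set of core subunits is encoded by mitochondrial DNA, and several complex IV subunits have alternative versions with their own tissue patterns.

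RNA came from jejunum, ileum, distal colon, liver and spleen of male mice of ICR, an outbred stock, at 4 and 28 months of age. Mice reached the study at 2 months (those sampled at 4 months) or at 8 months (those sampled at 28 months), and both ages were kept in single cages under specific-pathogen-free conditions on the AIN-93 diet. RNA of 6 mice at 4 months or 9 mice at 28 months was pooled per tissue and read on 1 array, so each of the 10 groups is 1 array with no spread between mice, and no age comparison within a tissue can be tested. The titles of the 3 intestinal arrays of 28 months differ in form from those of the other 7; nothing read here says whether their preparation differed too. In whole tissue, fewer cells of a type and less RNA per cell cannot be told apart.

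Defining genes matched the labelled tissues. Albumin (Alb) read 51037 and 50608 units in liver at 4 and 28 months against at most 175 elsewhere, and the B cell gene Ms4a1 read 14092 and 12818 in spleen against at most 978. The ileal bile acid binding protein gene Fabp6 was above the floor in ileum (20178 and 35830.5) and far lower in distal colon (272 and 429), and Hoxb13 was above it in distal colon alone. A pair of 4-month arrays stood apart. The ileum array read 14054 units for lactase (Lct), an upper intestinal enzyme, against 92.1 at 28 months, and correlated about as well with the 4-month jejunum array (r = 0.986 over probe sets) as with the 28-month ileum array (r = 0.987). The spleen array read 8306 units for the pancreatic elastase gene Cela2a, against 57.4 at 28 months. 

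The subunit genes lay lower at 28 than at 4 months in ileum and liver and higher in spleen, by small amounts. The median log2 ratio of 28 over 4 months was -0.23 in ileum, a change of -14.6%, with 71 of 75 measured genes below 0 (46.1% of all genes measured there were below 0). In liver it was -0.12, a change of -8.16%, with 65 of 71 below 0 (53.3% of all genes). In spleen it was 0.12, a change of 8.35%, with 59 of 71 above 0 (51.9% of all genes). Jejunum and distal colon lay closer to 0: the median was -0.04 in jejunum, with 51 of 73 below 0 (44.1% of all genes), and 0.06 in distal colon, with 48 of 74 above 0 (55.4% of all genes). The medians of all genes measured were 0.03 in each intestinal segment, -0.01 in liver and 0.01 in spleen. Since the subunit genes are bright on these arrays, they were also set beside the 798 other genes in the same upper range of signal, whose medians were 0.02 in ileum, 0.00 in liver, 0.04 in spleen, 0.02 in jejunum and -0.01 in distal colon. On the same arrays, smooth muscle markers were higher at 28 months in ileum (11 of 11 above 0, median 0.70), and the lactase signal given above was far lower there. Pancreatic acinar markers were lower in spleen (10 of 10 below 0, median -5.28). The excess of 3′ over 5′ actin signal in liver was 1.70 at 4 and 2.01 at 28 months on the log2 scale. For Gapdh this excess in liver was 0.53 and 0.98. The part of these differences in the ratios was not tested.

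**Figure D1:**
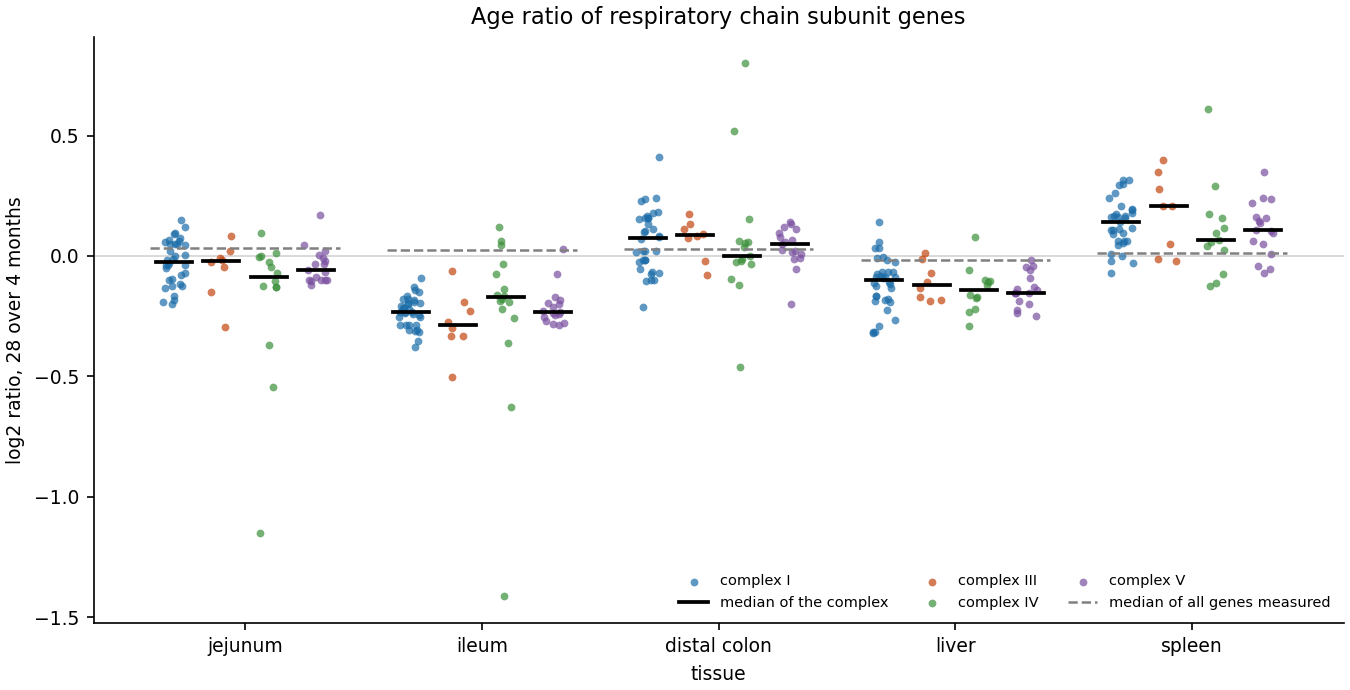
Each point is 1 subunit gene, plotted by tissue and complex, and the vertical axis is its log2 ratio of 28 over 4 months from 1 array per age; black bars are medians of a complex and dashed lines the median of all genes measured. Nearly every point lies below 0 in ileum (71 of 75) and in liver (65 of 71) and above 0 in spleen (59 of 71), and the points past 1.5-fold are complex IV genes.

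The 4 complexes shared these directions. Complex I, which oxidises NADH, had medians of -0.23 in ileum, with 34 of 34 genes below 0, -0.10 in liver (30 of 34 below 0) and 0.14 in spleen (29 of 33 above 0). Complex III, which passes electrons from ubiquinol to cytochrome c, had medians of -0.29 in ileum (8 of 8 below 0), -0.12 in liver (7 of 8) and 0.21 in spleen (6 of 8 above 0). Complex IV, cytochrome c oxidase, had medians of -0.17 in ileum (13 of 16 below 0), -0.14 in liver (11 of 12) and 0.06 in spleen (10 of 13 above 0). Complex V had medians of -0.23 in ileum (16 of 17 below 0), -0.15 in liver (17 of 17) and 0.11 in spleen (14 of 17 above 0). In distal colon complexes I, III and V had medians of 0.08, 0.09 and 0.05 and complex IV of -0.00; in jejunum the 4 medians lay between -0.09 and -0.02. Ndufa4, counted with complex I by its symbol, is now assigned to complex IV, and counting it and Ndufa4l2 there changed no complex's direction in ileum, liver or spleen.

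This combination of directions was less common among all genes on these arrays. It was taken from the subunit genes themselves, so their higher share follows from that choice and adds no separate evidence. Of the 70 subunit genes measured in all 5 tissues, 61 were below 0 in both ileum and liver (87.1%, against 27.7% of the 10317 genes measured in all 5 tissues), and 52 of these were also above 0 in spleen (74.3% against 16.1%). Adding a ratio above 0 in distal colon left 32 genes (45.7% against 8.98%). Only Cox6a2 kept 1 sign in all 5 tissues, below 0, whereas 9.07% of all genes kept 1 sign. The rank of the genes by ratio was only weakly shared between tissues. With 1 array per group, noise and a difference in rank cannot be told apart. The highest r of any pair of tissues was 0.28 (rho = 0.24), for jejunum and spleen. Across the 70 genes the ratios of ileum and liver, which share no array, had r = 0.19 (rho = 0.21). Those of ileum and distal colon had r = -0.39 but rho = -0.20, and those of liver and spleen r = -0.09 (rho = -0.06). These correlations are across genes, which are not independent replicates, and describe these arrays.

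Separate probe sets of the same gene gave close values. Over all probe sets of the subunit genes, 134 of 140 measured ones were below 0 in ileum, 124 of 137 were below 0 in liver and 110 of 136 were above 0 in spleen. The median SD between probe sets of 1 subunit gene was 0.05 in ileum, 0.09 in liver and 0.07 in spleen, against 0.13, 0.12 and 0.14 over all genes with several probe sets. These other genes were not matched for brightness. In jejunum and distal colon the median SD was 0.06 and 0.09 for subunit genes, against 0.11 and 0.14. There it exceeded the size of the median subunit ratios, -0.04 in jejunum and 0.06 in distal colon. This spread is between probe sets of the same arrays and holds no spread between mice. Probe sets of 1 gene disagreed most in ileum for Uqcrq, where a dim probe set gave a ratio of 0.72 beside -0.33 for the bright one.

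Few subunit genes differed by a large factor, and those that did belonged to complex IV. From 1.5-fold, in ileum 2 were lower (4.17% of all genes) and 0 higher (5.22%), in jejunum 1 lower (3.04%) and 0 higher (2.01%), in distal colon 1 higher (2.57%) and 0 lower (2.35%), in spleen 1 higher (3.19%) and 0 lower (1.95%), and in liver 0 either way (0.8% lower, 4% higher). Past 2-fold there were Cox7a1 in ileum (1.66% of all genes were lower by this much) and Cox6b2 in jejunum (1.02%).

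Cox7a1, whose product is the version of subunit VIIa known from heart and skeletal muscle, had the widest range between tissues of the subunit genes. The Cox7a1 signal was 5580.1 units in jejunum at 4 months and 3823 at 28 months, 5749.7 and 2159.7 in ileum, 862 and 1236 in distal colon, 105 and 82.1 in liver, and 39.5 and 43.0 in spleen. The 4 small intestinal arrays were high, distal colon was several-fold lower, and both liver and both spleen arrays lay below the floor. Taking the floor as an upper limit for liver and spleen, the mean signal was at least 41.7-fold higher in jejunum, at least 31.8-fold higher in ileum and at least 9.33-fold higher in distal colon. Its age ratio was -1.41 in ileum, -0.55 in jejunum and 0.52 in distal colon. The 28-month ileum array thus lay between the jejunum and the distal colon arrays. Against the mean of the other 4 tissues, with both ages as the only replicates, Cox7a1 was higher in jejunum by 3.33 (SE 0.325, limma, Benjamini-Hochberg adjusted p = 0.00038) and in ileum by 2.84 (SE 0.325, limma, Benjamini-Hochberg adjusted p = 0.000726) on the log2 scale with floored values.

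Cox7a2, the version of VIIa found in liver and most other tissues, and Cox7a2l, a related protein that joins complexes III and IV into supercomplexes, had other profiles. The Cox7a2 signal was 23597 units in jejunum at 4 months and 21604 at 28 months, 21365 and 18323 in ileum, 18498 and 18200.4 in distal colon, 18117 and 16068 in liver, and 10832 and 12232 in spleen. The Cox7a2l signal was 5781 units in jejunum at 4 months and 6175 at 28 months, 5983 and 5677 in ileum, 7692 and 7892 in distal colon, 5341 and 5637 in liver, and 8555 and 7848 in spleen. Cox7a2 followed the common pattern, with its lowest signals in both spleen arrays and a lower 28-month signal in ileum and liver. Cox7a2l differed from it on this probe set: distal colon and spleen were its higher tissues, and the spleen ratio of -0.12 was the lowest of any subunit gene in that tissue, before Cox7c (-0.11) and Cox6a2 (-0.07). The spleen level of Cox7a2l was above the mean of the other 4 tissues by 0.40 (SE 0.0671, limma, Benjamini-Hochberg adjusted p = 0.00153). That value is for the brightest of its 3 probe sets, and the spleen level varied between them: another read 6739 and 5911 units in spleen against 7657 and 8189 in distal colon, and the third 7220 and 6510.1 against 7089 and 6917.

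**Figure D2:**
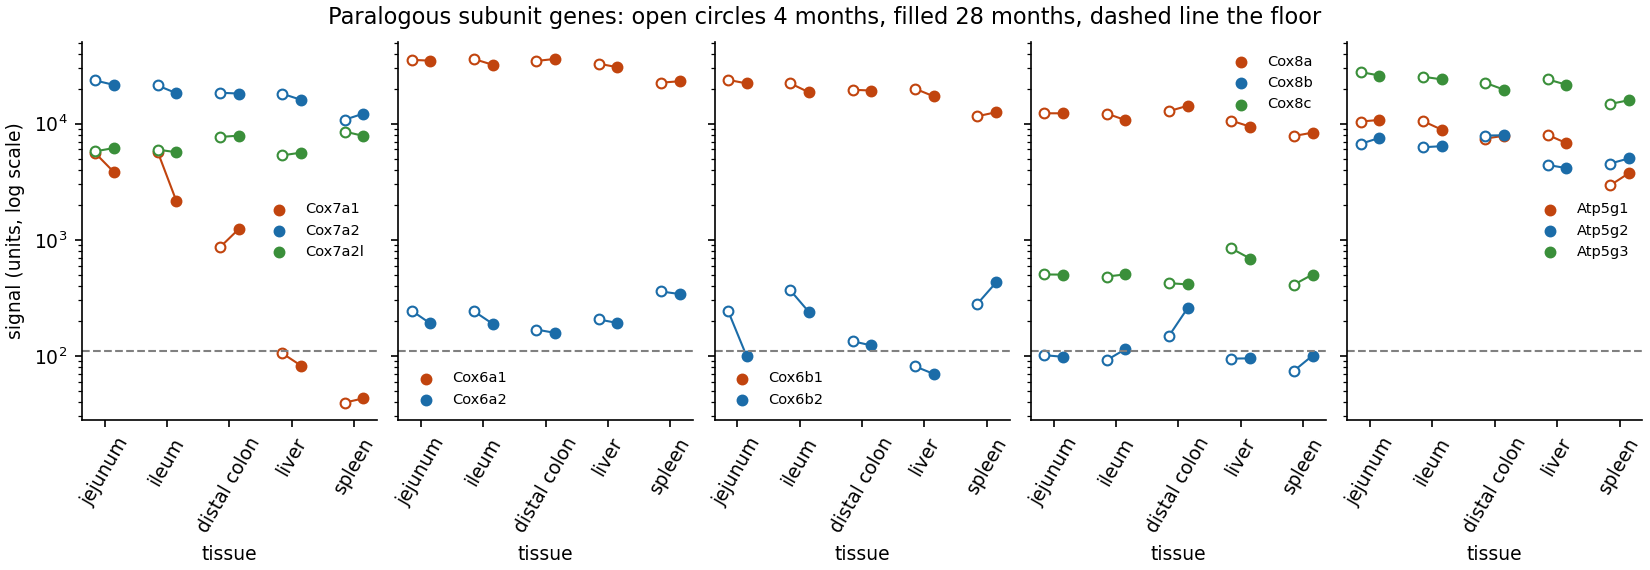
Signal in units on a log axis for groups of related subunit genes, by tissue, with 1 array per point (open circles 4 months, filled circles 28 months) and a dashed line at the floor of 111 units. Cox7a1 runs from its highest signals in small intestine at 4 months to below the floor in liver and spleen, while Cox7a2, Cox6a1, Cox6b1 and Cox8a stay within narrow ranges; probe sets differ in brightness, so levels are compared between arrays and not between genes.

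The stretches just before the start sites of Cox7a1 and Cox7a2 are shown because these related genes had such different tissue patterns, and those of Cox6a1 and Atp5h because they hold both of the main motifs searched for. RefSeq windows of 250 bases before the annotated start (GRCm38.p6) were available for 63 of the subunit genes, in 68 windows. They were searched on both strands for the motif of nuclear respiratory factor 1 (NRF1), which is GCGCA, then any base, then GCGC, and for CCGGAAG, a motif of ETS-family factors such as GABP; capitals mark matches on either strand, and the 2 motifs do not overlap in these windows. The windows read 5′ to 3′ towards the start site.
Cox7a1, chr7:30183921-30184170, plus strand: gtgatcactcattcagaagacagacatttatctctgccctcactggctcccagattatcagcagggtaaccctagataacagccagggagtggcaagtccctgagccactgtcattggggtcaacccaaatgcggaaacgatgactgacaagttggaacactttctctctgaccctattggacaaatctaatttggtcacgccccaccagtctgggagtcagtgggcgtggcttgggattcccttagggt
Cox7a2, chr9:79759854-79760103, minus strand: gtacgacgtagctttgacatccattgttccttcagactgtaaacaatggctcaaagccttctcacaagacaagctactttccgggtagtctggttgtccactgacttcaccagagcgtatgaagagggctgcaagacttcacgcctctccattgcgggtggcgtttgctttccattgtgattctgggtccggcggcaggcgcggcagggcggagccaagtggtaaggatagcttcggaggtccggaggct
Cox6a1, chr5:115348959-115349208, minus strand: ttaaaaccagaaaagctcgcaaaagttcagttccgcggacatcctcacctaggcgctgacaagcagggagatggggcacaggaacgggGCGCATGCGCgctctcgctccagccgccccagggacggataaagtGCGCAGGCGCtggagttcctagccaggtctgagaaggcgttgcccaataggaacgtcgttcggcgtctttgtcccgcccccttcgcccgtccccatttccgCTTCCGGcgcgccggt
Atp5h, chr11:115419920-115420169, minus strand: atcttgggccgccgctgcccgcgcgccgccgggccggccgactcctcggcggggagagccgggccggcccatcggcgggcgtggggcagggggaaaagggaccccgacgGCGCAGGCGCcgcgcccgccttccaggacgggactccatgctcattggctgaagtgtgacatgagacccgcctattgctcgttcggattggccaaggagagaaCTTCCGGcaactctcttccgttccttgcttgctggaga
The Cox7a1 and Cox7a2 windows held neither motif, and they held 4 and 14 CpG dinucleotides. Cox6a1 held the NRF1 motif at 2 places and CCGGAAG at 1, and Atp5h held 1 of each. Over the subunit genes, the NRF1 motif was found in 10 of 68 windows (14.7%), against 3.74% of all 32851 windows and 8.37% of windows of genes measured in all 5 tissues. CCGGAAG was found in 11 windows (16.2%), against 6.91% and 13.9%. AAGATGGCG, a YY1 motif, and TCAAGGTCA, a motif of estrogen-related receptors, were each found in 1 window (1.47%). Their shares were 0.606% and 0.387% of all windows, and 1.22% and 0.279% of windows of genes measured in all 5 tissues. A match is a run of letters and says nothing of binding, and the motifs were chosen with the data known.

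The other complex IV genes with tissue-specific versions were dim. Cox6b2, a version known from testis, had no common direction. The Cox6b2 signal was 245 units in jejunum at 4 months and 99.3 at 28 months, 367 and 238 in ileum, 133 and 123 in distal colon, 81.1 and 69.7 in liver, and 281 and 429.5 in spleen. It was lower at 28 months in jejunum, where the 28-month signal was below the floor (at least 2.22-fold lower), lower in ileum (ratio -0.63) and higher in spleen (0.61), while both liver arrays were below the floor. Cox8b, the heart and muscle version of subunit VIII, was above the floor mainly in distal colon, at 149 and 259 units (ratio 0.80), and above it once elsewhere, in the 28-month ileum at 114. Of 14 striated muscle markers 7 were measured in distal colon, 0 were above 0, and their summed signal was 2861 units at 4 and 2143 at 28 months. The part of muscle or of any other cell type in the Cox8b ratio was not tested. Cox6a2, the heart and muscle version of subunit VIa, read 358 and 340.5 units in spleen and from 158 to 245 elsewhere, with age ratios of -0.37 in jejunum and -0.36 in ileum. Cox8c, a testis version, was highest in liver, at 841 and 689, and between 410.2 and 503 elsewhere. Its ileum ratio of 0.06 turned to -0.38 with the median over its probe sets and to -0.00 after lowess, so it has no settled direction there. Cox4i2, an oxygen-responsive version of subunit IV, passed the floor in the 4-month ileum alone (113 units), and Cox7b2 on no array. Cox7c, a subunit common to all tissues, was represented here by dim probe sets only, which read 579 and 536 units in spleen and 208 to 422 elsewhere; it was the lowest ratio in distal colon (-0.46) and the highest in ileum (0.12).

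The common versions of these subunits showed the common pattern. The signal of Cox4i1, the main subunit IV gene, was 22586 units in jejunum at 4 months and 21875 at 28 months, 23336 and 20829 in ileum, 22973 and 22969.5 in distal colon, 19600.5 and 18051 in liver, and 14395 and 14994 in spleen. For Cox6a1 the signal was 35524 units in jejunum at 4 months and 34957 at 28 months, 36118 and 32208 in ileum, 34766 and 36173 in distal colon, 32934 and 30659 in liver, and 22588 and 23241 in spleen. Both were lowest in the 2 spleen arrays, lower at 28 months in ileum and liver and nearly level in distal colon. That of Cox6b1 was 23899.5 units in jejunum at 4 months and 22249 at 28 months, 22284 and 18632 in ileum, 19623 and 19313 in distal colon, 20041 and 17206 in liver, and 11602 and 12571 in spleen. That of Cox8a was 12308 units in jejunum at 4 months and 12296 at 28 months, 12245 and 10752 in ileum, 12842 and 14291 in distal colon, 10625 and 9436 in liver, and 7837 and 8379 in spleen. Spleen was again lowest for both, and Cox8a had its 2 highest signals in distal colon. The Ndufa4 signal was 15782 units in jejunum at 4 months and 14492 at 28 months, 14892 and 13001 in ileum, 8465 and 8321 in distal colon, 15544 and 14389.9 in liver, and 7308 and 7866 in spleen. Distal colon set Ndufa4 apart, since its difference from the mean of the other 4 tissues there was -0.57 (SE 0.0719, limma, Benjamini-Hochberg adjusted p = 0.000957). Its relative Ndufa4l2, known as a hypoxia-induced gene, lay near the floor on every array (80.3 to 137 units).

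Within complex I, single genes lay further from 0 than its medians. The signal of Ndufb3, an accessory subunit of the membrane arm, was 6244 units in jejunum at 4 months and 5728 at 28 months, 5876 and 4517 in ileum, 4337 and 4395 in distal colon, 5162 and 4139 in liver, and 3573 and 3521 in spleen. It was the lowest complex I gene in both ileum (-0.38) and liver (-0.32), and its spleen arrays hardly differed. For Ndufs1, the largest iron-sulphur subunit, the signal was 4410.3 units in jejunum at 4 months and 4601 at 28 months, 3933 and 3431 in ileum, 3406 and 3363 in distal colon, 4468 and 3589 in liver, and 2348 and 2509 in spleen. Its lower 28-month signal was in liver (-0.32) and ileum (-0.20), with ratios above 0 in jejunum and spleen. Ndufs7, which carries the last iron-sulphur cluster before ubiquinone, had ratios of -0.31 in liver and -0.25 in ileum. For Ndufv1, the flavin-bearing subunit that takes electrons from NADH, the signal was 7281 units in jejunum at 4 months and 7582 at 28 months, 6959 and 5442 in ileum, 6569.7 and 6494 in distal colon, 6476 and 6002 in liver, and 2555 and 3018 in spleen. The ileum pair differed most (-0.35), and the spleen pair was far below the rest at both ages. By the brightest probe set, Ndufc1, an accessory subunit, was the highest in liver (0.14, 7064 to 7787 units), followed by Cox7a2l (0.08) and the accessory subunit Ndufa2 (0.06). Other bright probe sets did not repeat this in liver: that of Ndufc1 had -0.01, and those of Cox7a2l had -0.07 and -0.01. Ndufb1 and Ndufa3, both accessory subunits, followed Cox8b and Cox7a1 among the highest in distal colon (0.41 and 0.24), where Ndufa2 was low (-0.21). In jejunum the highest by the brightest probe set were Atp5g2 (0.17), Ndufb1 (0.15) and Ndufc2 (0.12). Ndufb1 is dim, at 239 to 488 units. This order depends on the probe set: others of Ndufc2 had 0.08, 0.01 and -0.14 in jejunum, and others of Cox7a2l had 0.15 and 0.21.

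In complex III the core subunit gene Uqcrc1 had the lowest ileum ratio (-0.50), which among all subunit genes came after Cox7a1 and Cox6b2. The Uqcrc1 signal was 11508 units in jejunum at 4 months and 11365 at 28 months, 10762 and 7599.9 in ileum, 6546 and 7181 in distal colon, 5397 and 4735 in liver, and 2781 and 3376 in spleen. Its signals in jejunum and ileum at 4 months were close, while the 28-month ileum lay near distal colon. The signal of Uqcrq, a small subunit of the membrane part, was 11437 units in jejunum at 4 months and 11612 at 28 months, 11361 and 9012 in ileum, 6289 and 6664 in distal colon, 14768 and 13140.0 in liver, and 3346 and 4407 in spleen. Liver was highest and spleen lowest at both ages, and the spleen ratio of 0.40 was the largest there after Cox6b2. Uqcr11, another small subunit, had a spleen ratio of 0.35 (2518 to 3207 units). The signal of Uqcrh, the hinge protein that docks cytochrome c, was 15690.2 units in jejunum at 4 months and 12772 at 28 months, 12533 and 10971 in ileum, 11103 and 11830.0 in distal colon, 8476 and 7869.6 in liver, and 8759 and 8627 in spleen. Uqcrh differed in that liver, not spleen, was its lowest tissue and that jejunum had its lower ratio (-0.30). Both traits hold for this probe set alone. A second bright one of Uqcrh read 7582 and 7048 units in liver against 6919 and 6817 in spleen. Its ratios were -0.17 in jejunum and -0.19 in ileum.

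Complex V offers a comparison of 3 genes, Atp5g1, Atp5g2 and Atp5g3, that encode the same mature c subunit of the proton-driven ring. The Atp5g1 signal was 10445 units in jejunum at 4 months and 10776 at 28 months, 10535 and 8882 in ileum, 7451 and 7874 in distal colon, 8011 and 6794 in liver, and 2944 and 3750.4 in spleen. The Atp5g2 signal was 6708 units in jejunum at 4 months and 7546 at 28 months, 6270.1 and 6404 in ileum, 7901 and 7954 in distal colon, 4413 and 4145 in liver, and 4539 and 5024 in spleen. The Atp5g3 signal was 27885 units in jejunum at 4 months and 26034 at 28 months, 25416 and 24115 in ileum, 22510.0 and 19630.1 in distal colon, 24108 and 21663 in liver, and 14798 and 15952 in spleen. Of the 3, Atp5g1 followed the common pattern, with ratios of -0.25 in ileum, -0.24 in liver and 0.35 in spleen. Atp5g2 was highest in distal colon and lowest in liver, and its ileum ratio was 0.03. Its distal colon level exceeded the mean of the other tissues by 0.53 (SE 0.0699, limma, Benjamini-Hochberg adjusted p = 0.00118), and its liver level differed from theirs by -0.59 (SE 0.0699, limma, Benjamini-Hochberg adjusted p = 0.000329). Atp5g3 had the low distal colon ratio (-0.20). The catalytic subunit genes Atp5b and Atp5a1 had ratios of -0.28 and -0.17 in ileum and -0.20 and -0.14 in liver, but 0.16 and -0.07 in spleen. The spleen value of Atp5a1 is for its brightest probe set, and its other probe sets had 0.04 (bright) and 0.12 (dim) there.

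Across tissues the subunit genes were lowest in spleen and, in most cases, highest in jejunum. Of the 70 genes measured in all tissues, 63 had their lowest mean signal in spleen (27.2% of all genes did), and in 61 of these both spleen arrays lay below the other 8 arrays. Jejunum was highest for 46 (11.5% of all genes), in 28 of them with both arrays above the other 8. Both jejunum arrays also carried pancreatic acinar signal, given with the markers below, and its part in the jejunum level was not tested. Liver was highest for 12 (25% of all genes), distal colon for 9 (17.7%), spleen for 3 (34%) and ileum for 0 (11.7%). Against the mean of the other 4 tissues, the median difference was -0.68 in spleen, 0.38 in jejunum, 0.17 in ileum, 0.13 in distal colon and 0.05 in liver. Over all genes measured in 5 tissues, the medians of spleen, jejunum, ileum, distal colon and liver were 0.04, -0.05, -0.05, 0.04 and -0.09. The spleen difference was -0.81 at 4 months and -0.59 at 28 months, and that of ileum was 0.27 and 0.05, so both tissues stood nearer to the others at 28 months.

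**Figure D3:**
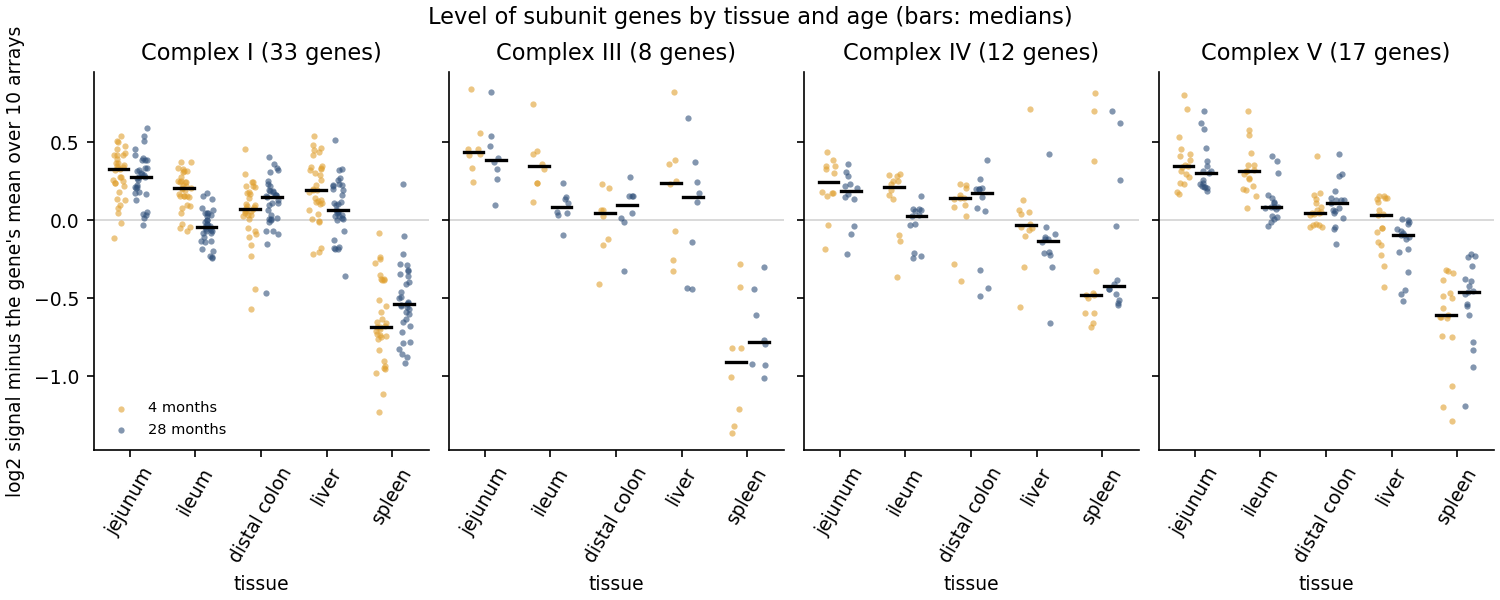
Log2 signal of each subunit gene minus its own mean over the 10 arrays, by tissue and age, in 1 panel per complex; each point is 1 gene measured in all 5 tissues on 1 array, and bars are medians. Spleen lies below the other tissues in each panel, ileum steps down from 4 to 28 months, and liver lies higher for complexes I and III than for IV and V.

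The complexes differed in liver. Complex I was above the mean of the other tissues there in 26 of 33 genes (median 0.19) and complex III in 5 of 8 (0.26), whereas complex IV was above it in 3 of 12 (-0.10) and complex V in 6 of 17 (-0.09). In spleen the median was -0.75 for complex I, -1.06 for complex III (2.08-fold lower), -0.56 for complex IV and -0.63 for complex V. These medians were not tested against each other.

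In a limma fit of tissue and age over all 13608 genes above the floor on at least 2 arrays, with the 2 ages as the only replicates of a tissue, 15 of the 74 subunit genes tested were called lower in spleen (adjusted p under 0.05 and at least 2-fold, against 16.1% of all genes), a share near that of all genes. With a limit of 1.5-fold the count was 47 of 74, against 24.8% of all genes. At that limit 3 were called higher in spleen (23.9% of all genes), 9 in jejunum (12.5%), 4 in ileum (13%), 3 in liver (17.6%) and 1 in distal colon (16.7%), 4 were called lower in liver (26.4%), and 0 were called lower in jejunum (12.7%), ileum (11.5%) or distal colon (9.96%). Beside Cox7a1, which was floored there, the largest differences called in spleen were Atp5md, a small subunit linked to ATP synthase dimers, at -1.49 (SE 0.0739, limma, Benjamini-Hochberg adjusted p = 5.65e-06), Uqcr11 at -1.48 (SE 0.104, limma, Benjamini-Hochberg adjusted p = 2.43e-05), Uqcrq at -1.40 (SE 0.13, limma, Benjamini-Hochberg adjusted p = 8.61e-05) and Atp5g1 at -1.39 (SE 0.119, limma, Benjamini-Hochberg adjusted p = 5.9e-05). Cox6b2 was the only one called higher in spleen (13.6% of all genes), at 1.10 (SE 0.294, limma, Benjamini-Hochberg adjusted p = 0.0132); it was not called without distal colon, without liver or without the filter on low signals. In jejunum 2 were called higher (7.21% of all genes) and 0 lower (5.16%): Cox7a1 and Uqcrc1, the latter at 1.04 (SE 0.141, limma, Benjamini-Hochberg adjusted p = 0.00148). That count was 1 without liver or without spleen and 4 without ileum, and the spleen count of higher genes was 2 without jejunum. Cox7a1 was the only one called in ileum (higher, 7.43% of all genes, and 0 lower, 4.37%) and in liver (lower, 15.1%, and 0 higher, 11%), and none was called in distal colon (9.29% higher, 4.89% lower), where 29 of 74 subunit genes and 7179 of the 13608 genes had an unadjusted p under 0.05 by limma. Leaving out spleen gave 2 called higher in ileum, leaving out jejunum or ileum gave 1 called higher in distal colon and 1 in liver, and leaving out jejunum or distal colon gave 2 called lower in liver. From 1.5-fold, the 9 called higher in jejunum were 16 without ileum, 16 without liver, 14 without distal colon and 4 without spleen. The 4 higher in ileum were 6 without jejunum and 2 without spleen, the 1 higher in distal colon was 4 without jejunum or without ileum, and the 3 higher in liver were 5 without jejunum or without ileum. The 4 lower in liver were 7 without spleen, distal colon had 2 lower without jejunum or without spleen and 1 without ileum or without liver, and ileum had 1 lower without liver.

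**Figure D4:**
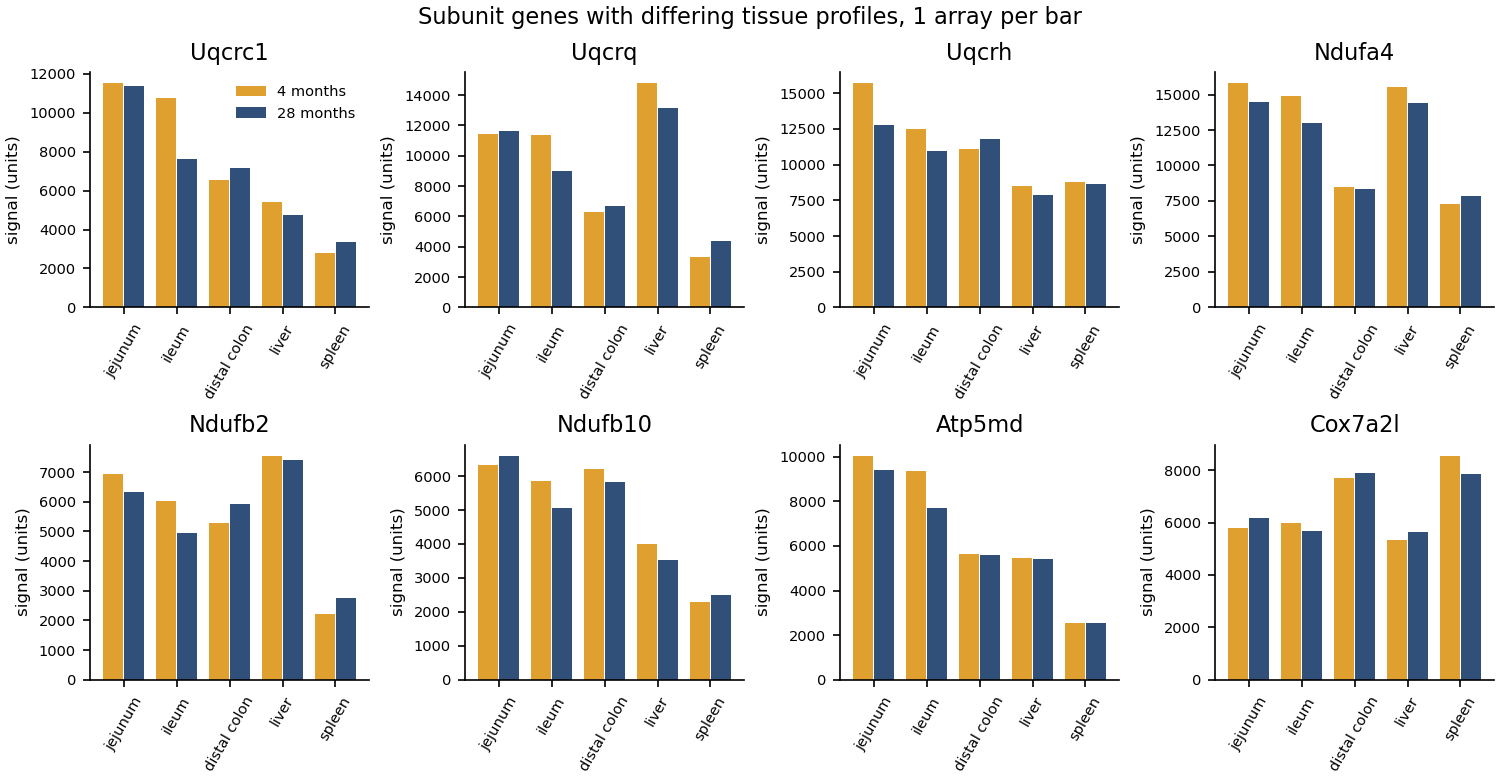
Signal in units (axes from 0) of 8 subunit genes in 5 tissues at 4 and 28 months, with 1 array per bar and therefore no error bars. Uqcrc1 and Atp5md step down from jejunum to spleen, Uqcrq and Ndufb2 are highest in liver and lowest in spleen, Ndufa4 is low in distal colon and spleen, and Cox7a2l is highest in spleen at 4 months.

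Some genes had an order of tissues of their own. Uqcrq and the accessory complex I gene Ndufb2 were above the other tissues in liver, by 0.92 (SE 0.13, limma, Benjamini-Hochberg adjusted p = 0.00074) and 0.66 (SE 0.115, limma, Benjamini-Hochberg adjusted p = 0.00198). The Ndufb2 signal was 6933 units in jejunum at 4 months and 6330.5 at 28 months, 6029.7 and 4948 in ileum, 5301 and 5911 in distal colon, 7557 and 7422 in liver, and 2208 and 2745 in spleen. Atp5md and Atp5o, the gene of the stalk protein OSCP, were above the others in jejunum by 0.94 (SE 0.0739, limma, Benjamini-Hochberg adjusted p = 0.000153) and 0.84 (SE 0.0918, limma, Benjamini-Hochberg adjusted p = 0.000615). The Atp5md signal was 10053 units in jejunum at 4 months and 9393 at 28 months, 9364 and 7694 in ileum, 5661 and 5609 in distal colon, 5479.7 and 5412 in liver, and 2521 and 2533 in spleen. None of these reached 2-fold. Ndufb10, an accessory subunit, read 6225 and 5817 units in distal colon, close to jejunum at 6316 and 6604, and 4004 and 3540.4 in liver. By the brightest probe set, genes whose lowest tissue was not spleen were Atp5g2, Cox7a2l, Cox7c and Uqcrh, lowest in liver, and Cox6a2, Cox8c and Ndufb1, lowest in distal colon.

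No subunit gene was called for age over the tissues. In limma with tissue as a block, 0 of 74 subunit genes and 0 of 13608 genes passed an adjusted p of 0.05 (0% called either way); 926 genes had an unadjusted p under 0.05, among them 1 subunit gene, Cox6a2, at -0.20 (SE 0.0783, limma, Benjamini-Hochberg adjusted p = 0.731). Next was Ndufb3, at -0.16 (SE 0.0746, limma, Benjamini-Hochberg adjusted p = 0.737). The tissue medians had opposite signs, and the median age difference over subunit genes was -0.05; it was -0.00 without ileum, -0.08 without spleen and -0.04 without either, the last a setting chosen after seeing the data. The intestine was also set against liver and spleen as a difference of age ratios: 0 of 74 subunit genes and 0 of all genes were called (0% either way), 794 genes and 1 subunit gene had an unadjusted p under 0.05, and that gene was Cox6b2, at -0.94 (SE 0.344, limma, Benjamini-Hochberg adjusted p = 0.778). Without liver this contrast called 26 genes higher and 18 lower, and without spleen 5 higher and 12 lower, none of them a subunit gene.

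Other mitochondrial genes were read from lists of related genes. Complex II (Sdha to Sdhd), which is also an enzyme of the TCA cycle, had a median of -0.51 in ileum with all 4 genes below 0, and of -0.18 in liver. For its flavoprotein gene Sdha the signal was 8905 units in jejunum at 4 months and 8285 at 28 months, 7880.1 and 5292 in ileum, 5367 and 5110.4 in distal colon, 9569 and 8689 in liver, and 3974 and 3749 in spleen. Its 28-month ileum array lay near distal colon, as for Uqcrc1. TCA cycle genes had a median of -0.25 in ileum, with 11 of 12 below 0 and Mdh2, malate dehydrogenase, at -0.60, and of -0.16 in liver. Cycs and Cyc1, the genes of cytochrome c and of the cytochrome c1 subunit of complex III, had ratios of -0.07 and -0.32 in ileum, -0.22 and -0.27 in liver and 0.32 and 0.20 in spleen. Mitochondrial ribosomal protein genes, 72 of them measured, shared the directions in ileum (51 below 0, median -0.10), liver (57 below 0, -0.10) and spleen (63 above 0, 0.13), and had medians of 0.13 in jejunum and 0.12 in distal colon. Cytosolic ribosomal protein genes did not show them, with medians of 0.06 in ileum, 0.03 in liver and 0.01 in spleen over 32 genes. Assembly factors had a median of -0.06 in ileum, where 31 of 45 were below 0 and Sco2, which delivers copper to complex IV, was at -1.26. Of the mitochondrial DNA-encoded subunits only ND5 was matched, and its ratios were 0.01 in ileum, 0.04 in liver, 0.06 in spleen and -0.20 in distal colon. Among regulators of mitochondrial biogenesis, Ppargc1a, the coactivator PGC-1alpha, was at -0.81 in ileum and 0.37 in liver, and 0 of 13 regulators measured in spleen were above 0.

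**Figure D5:**
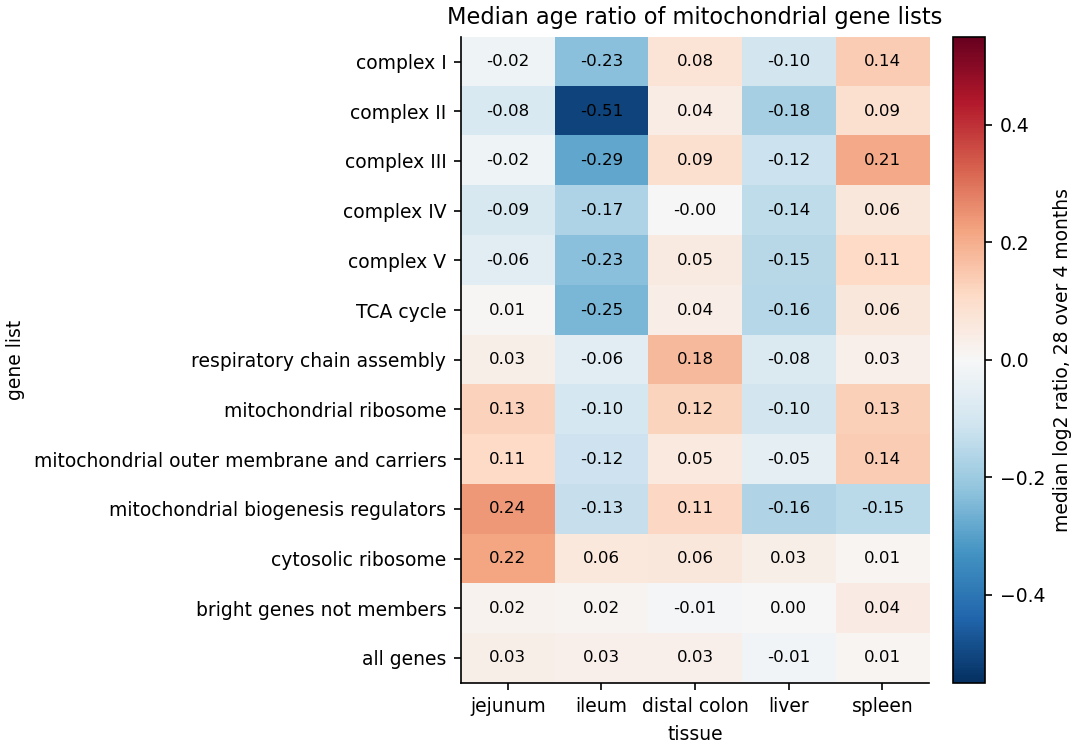
Median log2 ratio of 28 over 4 months for lists of mitochondrial genes (rows) in 5 tissues (columns), from 1 array per tissue and age; colour runs from blue (lower at 28 months) to red (higher), with the value printed in each cell. Complexes I to V are below 0 in ileum and liver and above 0 in spleen, while cytosolic ribosomal genes and bright genes outside the subunit list lie within 0.06 of 0 in these 3 tissues.

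Markers of other cell types moved in the same tissues. In ileum, 11 of 11 smooth muscle markers were above 0 (median 0.70, summed signal 33739 units at 4 and 52775 at 28 months) and 5 of 6 pericyte markers (0.46), while the enterocyte list had a summed signal of 154404 and 101553, with 4 of 9 markers above 0 (median -0.19), Lct at -6.99, Mep1a at 1.05 and Fabp2 at 0.01. Across the 70 subunit genes, the ileum ratio had r = -0.43 (rho = -0.43) with the log2 difference of jejunum over distal colon at 4 months and r = -0.16 (rho = -0.30) with that at 28 months; these are descriptions across genes that share probe sets but no array. In distal colon, 0 of 11 smooth muscle markers were above 0 (median -0.52, 119902 and 84543 units) and 8 of 8 B and T cell markers were (1.10, 1714 and 3725 units). In spleen, 10 of 10 measured pancreatic acinar markers were lower at 28 months (median -5.28, summed signal 52346 and 1626 units), and 6 of 6 erythroid markers (0.57) and 11 of 11 proliferation markers (0.58) were above 0, as were 2 of 8 B and T cell markers (-0.20). In jejunum the acinar sums were 82487 and 82840 units and 1 of 9 enterocyte markers was above 0 (median -0.63), as were 11 of 11 proliferation markers (0.49). In liver 5 of 5 proliferation markers were above 0 (0.33) and 5 of 9 hepatocyte markers (0.02). The excess of 3′ over 5′ actin signal changed by 0.31 in liver, by 0.07 to 0.17 in jejunum, ileum and spleen and by -0.19 in distal colon. That of Gapdh changed by 0.45 in liver, by 0.05 to 0.13 in jejunum, ileum and spleen and by -0.21 in distal colon. The part of these other markers in the subunit gene ratios was not tested either.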

How the data were processed

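The authors deposited log2 signals, 1 per probe set, from a 3′ expression array; MAS5 and affy are named in the submitters' processing notes without version or role, and detection calls and per-mouse values were not used here. The base of 2 was inferred from the deposited range. Signals were taken out of the log, scaled per array to a mean of 500 units after trimming 2% at each end (factors 2.42 to 2.57), and set to a floor of 111 units, and log2 ratios of 28 over 4 months were formed within each tissue. Ratios are therefore on a floored scale and understate changes of dim genes. Genes were named by the single-symbol platform annotation, and all 77 symbols matched RefSeq (GRCm38.p6) by gene ID. Models were fitted with limma 3.58.1 (trend) in R 4.3.3 on the 13608 genes above the floor on at least 2 arrays, with Benjamini-Hochberg adjustment over all of them; tissues, or the 2 ages, stand in for replicates. Python 3.11.15 was used otherwise, and the fits were tested on simulated data. The simulated shifts were far larger than the median age ratios of the subunit genes, so that test does not cover shifts of this size. The gene rule, lists and tests were chosen with earlier results of these data known. Genes were named if past 1.5-fold, among the 3 largest ratios per tissue and direction, called by limma (up to 5 per tissue contrast), or related copies of a subunit; a few more were chosen after their values were seen. Alternatives were a floor at percentile 25 or at percentile 75, 16 units added in place of a floor, equal medians, quantile normalisation, lowess, other probe set rules, no filter, and leaving out tissues. The number of arrays and signal over background limit precision.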

Additional observations from a re-analysis of the deposited data

Results flagged for a closer look

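The median age ratio of the subunit genes had opposite signs in different tissues. It was -0.23 in ileum and 0.12 in spleen, and -0.12 in liver and 0.12 in spleen. With 1 array per tissue and age, these differences between tissues were not tested.

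Cox6b2, the version of complex IV subunit VIb known from testis, was -1.15 in jejunum and -0.63 in ileum but 0.61 in spleen. The difference between single tissues was not tested, and the contrast of the intestine with liver and spleen gave an adjusted p of 0.778 by limma. Its signals were dim, between 69.7 and 430 units, so the ratios lie close to the floor of 111 units.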

How the results depend on the processing

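The median ratio of the subunit genes kept its sign in every tissue under all 11 settings run, from -0.25 to -0.17 in ileum, -0.13 to -0.07 in liver, 0.07 to 0.12 in spleen, -0.07 to -0.02 in jejunum and 0.03 to 0.09 in distal colon; the ileum value of -0.17 came from quantile normalisation. In distal colon the genes below 0 went from 26 to 15 with equal medians, and over the 11 settings they ranged from 15 to 34. Genes past 1.5-fold numbered 1 in jejunum, 2 in ileum, 1 in distal colon and 1 in spleen. They became 4 in ileum with the floor at percentile 25, and 0 in jejunum, 1 in ileum, 0 in distal colon and 0 in spleen with the floor at percentile 75. In spleen the count was 0 without a floor and 0 relative to bright genes, a setting chosen after seeing the data. At 2-fold it was 1 in ileum, 0 in distal colon and 0 in spleen. Cox8c in ileum (0.06) reversed to -0.00 with lowess (-0.0045) and to -0.38 with the median over probe sets. Tissue calls were 1 higher in distal colon and 2 lower in liver with the floor at percentile 25, 2 lower in liver without a floor, 2 higher in ileum without probe sets shared between transcripts and 0 higher in spleen without the filter. Leaving out 1 tissue at a time (leave-one-out) gave 0 to 1 higher in distal colon, 0 to 1 higher and 1 to 2 lower in liver, 0 to 2 higher in spleen, 1 to 4 higher in jejunum and 1 to 2 higher in ileum. From 1.5-fold the calls were 47 lower and 3 higher in spleen, 4 lower and 3 higher in liver, 9 higher in jejunum, 4 higher in ileum and 1 higher in distal colon. Leave-one-out gave 4 to 16 higher in jejunum, 2 to 6 in ileum, 1 to 4 in distal colon and 2 to 5 in liver, and 3 to 7 lower in liver. Both age models called 0 subunit genes under every setting run, also without ileum and spleen, added after seeing the data. The cause of these differences was not tested. No paired analysis was possible because the labels give no replicate numbers and each group holds 1 array; the age model itself has tissue as a block, which pairs the 2 ages of a tissue. With 1 array per group, no value here measures variation between mice.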

Other observations

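Probe sets that name several genes, among them a subunit gene, were outside the rule, and 5 of the 9 were bright. They read Ndufs5 with its pseudogene, Ndufb4 with its copies Ndufb4b and Ndufb4c (a pair of probe sets), Ndufa11 with Ndufa11b, and Ndufs6 with Ndufs6b, all of complex I. The Ndufs5 probe set had log2 ratios of -0.26 in ileum, -0.10 in liver and 0.10 in spleen. The pair for Ndufb4 had -0.38 and -0.33 in ileum, -0.07 and -0.18 in liver, and 0.11 and 0.20 in spleen. The Ndufa11 probe set had -0.17, -0.06 and 0.20, and that of Ndufs6 had -0.25, -0.10 and 0.12 in the same tissues. Each of the 5 thus lay below 0 in ileum and liver and above 0 in spleen. In distal colon the pair for Ndufb4 had 0.42 and 0.24. Reads of near-identical copies cannot be separated here, so no single gene is named for these values.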
